A study of Homo sapiens with 16 samples.

Results

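The genes described here are 44 human genes of DNA replication and mitosis, taken as the rows of the count files whose gene symbol equals a listed name, 44 of 20802 gene targets. They comprise 21 genes of the G1/S transition and replication (called the G1/S genes below), 19 genes of G2 and mitosis (the G2/M genes) and 4 regulators of G1. Their symbols as the files give them are MCM2 to MCM7, MCM10, PCNA, CDC6, CDT1, GINS2, RRM1, RRM2, TYMS, CCNE1, CCNE2, E2F1, POLA1, FEN1, RFC4 and UHRF1, then CCNA2, CCNB1, CCNB2, CDK1, CDC20, PLK1, AURKA, AURKB, BUB1, BUB1B, TOP2A, KIF11, KIF20A, CENPE, CENPF, MKI67, TPX2, BIRC5 and NUSAP1, then CCND1, MYC, CDKN1A and CDKN1B. They were set against each other as a check for slowed growth after interferon.

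The study compared HEK293 cells, a line derived from human embryonic kidney and kept here in Free-style medium, that carried either wild-type interferon receptors or receptors labelled as optimized. Both genotypes were left untreated or given 100 nM of IFNw (a type I interferon), IFNL3 (a type III interferon) or H11, which the labels call a high-affinity form of IFNL3. That makes 8 groups with 2 libraries each: untreated, IFNw, H11 and IFNL3 in wild-type cells, and the same 4 in optimized cells. The labels give the ligands as a 15 min exposure, and a time of 24 hr for all groups, untreated ones included, without saying how the 2 times relate. No mock-treated group was used here, so a difference in handling cannot be told apart from the ligand. The labels call the replicates biological without naming separate cultures, and do not say whether a genotype is a single clone. The p-values below therefore measure only the spread between these libraries, which may be technical.

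A cell that commits to division first loads the MCM helicase onto replication origins, with the help of CDC6 and CDT1, and then copies its DNA with polymerases held by the PCNA clamp. E2F factors, released from RB family proteins by cyclin-dependent kinases, switch on most of these genes at the G1/S transition, while a later group, repressed by the DREAM complex in resting cells, rises towards mitosis under CDK1 and its cyclins. Interferons are known to slow the growth of many cell types. HEK293 cells carry the adenoviral E1A and E1B genes, whose products act on RB and p53.

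Library totals lay between 5331203 and 9822088 reads, and 43 of the 44 genes passed the low-count filter. Replicate 2 of untreated optimized cells stood apart: it had the lowest total, and the correlation of log CPM between it and replicate 1 was 0.962 over genes, where the remaining 7 groups had 0.979 to 0.984. All 8 genes of a list of classical interferon targets rose in each of the 6 ligand comparisons. Of 5 genes usual in HEK293 cells, VIM reached 542 CPM, the neurofilament genes NEFL, NEFM and NEFH stayed under 5 CPM in every library, and PAX2 lay between 0.92 and 6.28 CPM.

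Markers of other cells were low but differed between groups. The summed level of 7 blood cell markers was 5.87 to 6.26 CPM under H11 and 3.05 to 5.37 CPM under IFNL3 in wild-type cells, against 0.98 to 2.14 CPM in the other 12 libraries. Nearly all of it was CD68, the 1 of the 7 that was tested, which rose by 2.07 and 1.62 on the log2 scale (edgeR), while PTPRC, CD3E, HBB and LYZ had at most 1 read each over the 16 libraries. The sum of 7 fibroblast markers was 23.3 to 29.6 CPM in untreated cells and in optimized cells with IFNL3, 22.03 to 23.4 CPM in optimized cells with IFNw or H11 and 15.4 to 20.2 CPM in wild-type cells with a ligand. Of its 2 tested genes THY1 fell with H11 and IFNL3 in wild-type cells (-0.93 and -0.84), and COL1A1 fell with IFNw in wild-type cells (-1.15) and with IFNw and H11 in optimized cells (-0.80 and -0.87). The sum of the 5 HEK293 genes was 461 to 547 CPM in untreated cells and in wild-type cells with H11 or IFNL3, and 273 to 452 CPM in the rest. With H11 both tested ones, VIM and PAX2, were lower in optimized than in wild-type cells (-0.77 and -1.66). With IFNL3 PAX2 was lower there too (-1.71), and VIM was not called (-0.22). Against untreated cells PAX2 rose with H11 and IFNL3 in wild-type cells (1.18 and 1.87) and was not called in optimized cells. VIM fell with IFNw in wild-type cells (-0.62) and with IFNw and H11 in optimized cells (-0.40 and -0.58). The sum of 6 hepatocyte and keratinocyte markers was at most 0.63 CPM. The part of these genes in the results below was not tested.

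A trend with transcript length ran through the libraries and is given beside the results it touches. Relative to each gene's mean over the 16 libraries, levels fell with transcript length in the libraries with IFNw, of either genotype, and in optimized ones with H11 (Spearman's rho -0.43 to -0.47 across genes, which are not independent replicates). They rose with length in wild-type cells given H11 or IFNL3 (rho 0.41 to 0.44), and rho lay between 0.03 and 0.16 in the other 6 libraries. Of all reads, 17.7% to 18.5% fell on the 50 most abundant genes in the 4 libraries of wild-type cells with H11 or IFNL3, against 23.7% to 28.7% elsewhere. Fold changes that are given with a length offset come from the same test after that trend was removed from each library.

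Levels are in CPM (counts scaled to library size with TMM factors), with replicate 1 first and replicate 2 second. Fold changes are given on the log2 scale ± SE, by edgeR's quasi-likelihood test, and a gene is called, or said to have risen or fallen, where the Benjamini-Hochberg adjusted p over all 12704 tested genes was under 0.05. The counts come from amplicon targets of unknown position, so levels of different genes are not compared. Values without 1 library were computed for up to 6 called genes per direction and comparison, those with the largest changes. Smaller calls, those of PLK1, BUB1, NUSAP1, MCM6, RFC4, RRM2 and TYMS among them, have none. How far such calls rest on single libraries was not tested.

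Promoter sequences of 5 genes whose levels went different ways are shown first, because the G1/S and G2/M classes are known by short promoter motifs. They come from RefSeq (GRCh38.p14), 200 bases ending at the base before the first listed start. Capitals mark E2F letters (TTTCCCGC, TTTCGCGC, TTTGCCGC or TTTGGCGC), letters of the CHR, the cell cycle genes homology region bound by DREAM (TTTGAA or TTCGAA), and CCAAT boxes, on either strand. CDK1, the mitotic kinase, is shown from chr10:60778131-60778330, plus strand, MKI67, the proliferation marker Ki-67, from chr10:128126424-128126623, minus strand, and TOP2A, DNA topoisomerase II alpha, from chr17:40417897-40418096, minus strand. CDT1, the licensing factor, is shown from chr16:88803589-88803788, plus strand, and PCNA, the sliding clamp, from chr20:5126623-5126822, minus strand.
CDK1: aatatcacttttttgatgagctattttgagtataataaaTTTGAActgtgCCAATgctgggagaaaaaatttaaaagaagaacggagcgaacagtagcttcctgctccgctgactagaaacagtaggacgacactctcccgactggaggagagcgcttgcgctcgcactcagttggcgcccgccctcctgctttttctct
MKI67: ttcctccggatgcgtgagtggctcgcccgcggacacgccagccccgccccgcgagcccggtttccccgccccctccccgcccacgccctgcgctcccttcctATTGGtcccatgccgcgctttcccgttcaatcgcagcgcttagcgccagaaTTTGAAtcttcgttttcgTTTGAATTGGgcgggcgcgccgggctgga
TOP2A: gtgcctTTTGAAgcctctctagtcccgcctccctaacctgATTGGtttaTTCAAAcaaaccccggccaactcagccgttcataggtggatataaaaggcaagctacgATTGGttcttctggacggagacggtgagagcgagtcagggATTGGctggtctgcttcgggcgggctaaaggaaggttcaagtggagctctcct
CDT1: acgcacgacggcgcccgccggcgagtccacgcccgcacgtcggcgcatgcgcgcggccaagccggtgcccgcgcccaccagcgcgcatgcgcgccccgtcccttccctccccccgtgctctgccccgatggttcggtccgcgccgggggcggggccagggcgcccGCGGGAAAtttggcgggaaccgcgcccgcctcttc
PCNA: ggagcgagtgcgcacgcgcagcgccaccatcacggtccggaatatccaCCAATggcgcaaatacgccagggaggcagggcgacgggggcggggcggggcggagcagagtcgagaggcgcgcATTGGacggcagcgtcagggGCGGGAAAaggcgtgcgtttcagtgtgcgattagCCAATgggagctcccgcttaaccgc
CDK1, MKI67 and TOP2A, the G2/M genes of the 5, each hold CHR letters beside CCAAT boxes, and in MKI67 a CHR overlaps a CCAAT box. CDT1 and PCNA, the G1/S genes, hold E2F letters and no CHR in the bases shown. CDK1 holds E2F letters (TTTCGCGC) as well, past the start and so outside the bases shown.

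Over the 300-base windows (250 before to 50 after the start) the 2 classes differed in these letters. E2F letters were found in 12 of 18 G1/S promoters (66.7%) and 2 of 16 G2/M promoters (12.5%), against 3.33% of all 27305 promoters. CHR letters stood in 2 of 18 (11.1%) and 11 of 16 (68.8%), against 16.6% of all. CCAAT boxes stood in 12 of 18 (66.7%) and 14 of 16 (87.5%), against 35.7% of all. The interferon response element letters (GAAA, any 2 bases, GAAA), a motif added after the other counts were known, were in 0 of these 34 and in 3.65% of all promoters. No promoter was matched for 3 G1/S and 3 G2/M genes. Such matches describe the sequence only.

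In each of the 6 ligand comparisons some of the 43 tested genes rose and others fell. IFNw gave, in wild-type cells, 7 that rose and 12 that fell, where 31.4% of all tested genes were called (16.6% up and 14.8% down). With H11 in wild-type cells 12 rose and 4 fell (38.8% of all genes called, 18.2% up and 20.6% down), and with IFNL3 in wild-type cells 13 rose and 5 fell (39.7%, 18.7% up and 21.1% down). In optimized cells 7 rose and 12 fell with IFNw (33.4%, 17.5% up and 15.9% down), 7 rose and 11 fell with H11 (32.4%, 17.2% up and 15.2% down), and 4 rose and 3 fell with IFNL3 (13.3%, 7.26% up and 6.05% down). The shares of these genes called, 7 to 19 of 43, were thus near or somewhat above those of all genes. Some of these counts rest on single libraries. In wild-type cells with IFNw the 19 called became 11 without IFNw replicate 1, and with IFNL3 the 18 became 10, 9 and 11 without IFNL3 replicate 1, IFNL3 replicate 2 or untreated replicate 1. With IFNL3 in optimized cells the 7 became 1 without IFNL3 replicate 1, 2 without IFNL3 replicate 2, 1 without untreated replicate 2 (the library that stood apart) and 13 without untreated replicate 1. Leaving out 1 library gave 14 to 24 with IFNw and 12 to 24 with H11 in optimized cells. The 3 comparisons of a genotype share its untreated libraries. In bulk RNA a change in the share of cells in a phase and a change in RNA per cell cannot be told apart.

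The split between up and down rests on the scaling between libraries. With library totals alone, the median over all genes moved by -0.40, -0.43 and -0.40 with IFNw in wild-type cells, IFNw in optimized cells and H11 in optimized cells, and by 0.25 and 0.27 with H11 and IFNL3 in wild-type cells. On that scale IFNw in wild-type cells gave 3 of the 43 genes up and 25 down, where 9.02% of all genes were up and 35.8% down. For IFNw in optimized cells it was 2 up and 22 down (8.68% and 37.8% of all genes), and for H11 in optimized cells 3 and 20 (8.8% and 36%). H11 and IFNL3 in wild-type cells gave 24 up and 3 down each (31.8% and 12.5% of all genes with H11, 33% and 12.6% with IFNL3), and IFNL3 in optimized cells 3 up and 4 down (5.72% and 7.9%). None of the genes called with TMM scaling changed sign on that scale. No longer called there were, with IFNw in wild-type cells, PCNA (0.29), CCNE1 (0.29), FEN1 (0.38) and CCNA2 (0.02), and with IFNL3 there MCM2 (-0.09). In optimized cells they were MCM4 (0.02), GINS2 (0.56), CCNE1 (0.39), CCND1 (0.70) and CDKN1B (0.07) with IFNw, PCNA (0.14), CDC6 (0.20), GINS2 (0.44) and CDKN1B (0.12) with H11, and CDK1 (0.44) with IFNL3, and CDT1 is given below. All directions below are relative to the other genes of the same libraries, as TMM scaling sets them.

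**Figure D1:**
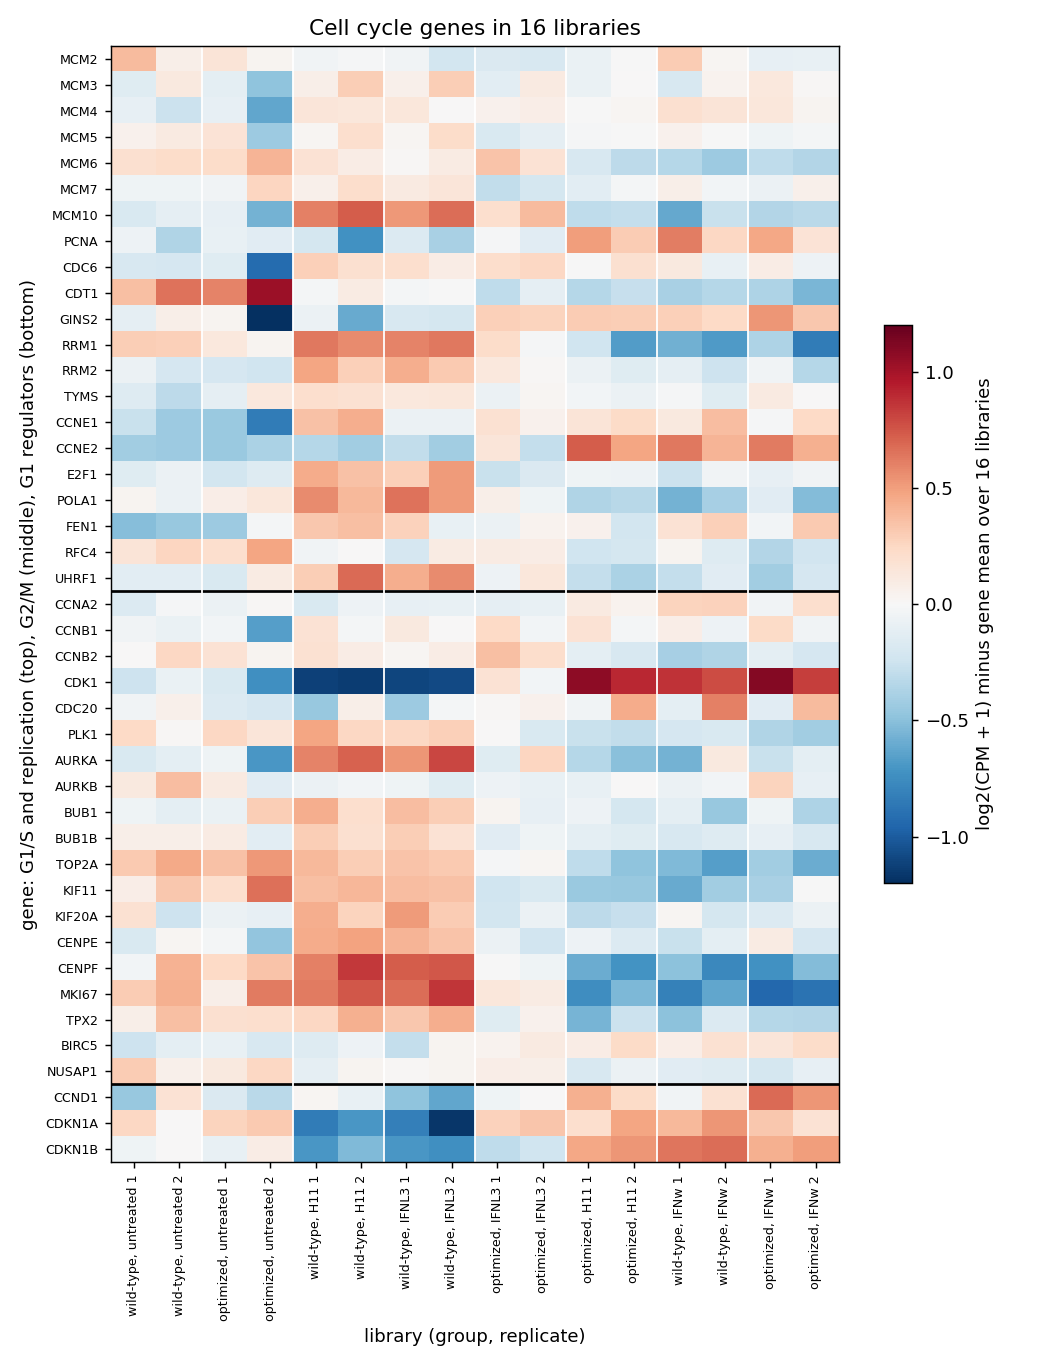
Levels of 43 genes (rows, without MYC) in the 16 libraries (columns) as log2(CPM + 1) minus the gene's mean over the libraries; red is above and blue below that mean, and black lines separate the G1/S, G2/M and G1 genes. Libraries with IFNw and optimized libraries with H11 share blue MKI67, CENPF and TOP2A and red CDK1, and wild-type libraries with H11 and IFNL3 show the opposite colours for CDK1, CENPF and MKI67.

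CDK1 moved further than any other of the 43 genes in the comparison of optimized with wild-type cells under H11. CDK1 was at 566 and 634 CPM in untreated wild-type cells, 1222 and 1157 with IFNw, 308 and 305 with H11 and 313 and 317 with IFNL3. In optimized cells it was at 589.9 and 402 CPM untreated, 1445 and 1193 with IFNw, 1417 and 1259 with H11 and 757 and 655 with IFNL3. The 6 libraries with IFNw, or with H11 in optimized cells, were the highest, the 4 of wild-type cells with H11 or IFNL3 the lowest, and these sets do not overlap with the untreated ones. CDK1 rose with IFNw in wild-type cells (0.99 ± 0.15, adjusted p = 0.00011 by edgeR's quasi-likelihood test) and fell with H11 (-0.97 ± 0.15) and IFNL3 (-0.93 ± 0.15). In optimized cells it rose with IFNw (1.41 ± 0.16), H11 (1.43 ± 0.16) and IFNL3 (0.51 ± 0.15). With the length offset these were 0.74, -0.76, -0.72, 1.13, 1.16 and 0.43, the last no longer called, as it also was not without replicate 2 of untreated optimized cells (0.26) or either optimized IFNL3 library (0.41 and 0.61).

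The cyclin partners of CDK1, and CDC20, did not change as much as CDK1 did. CCNB1, the mitotic cyclin B1, lay between 267 and 499 CPM over the 16 libraries and was called in 0 of the 6 ligand comparisons, with fold changes from 0.07 (IFNw, wild-type) to 0.42 (IFNL3, optimized). CCNB2, cyclin B2, fell with IFNw in wild-type cells from 379 and 446 to 285 and 294 CPM (-0.51 ± 0.12). In the other 5 ligand comparisons it was between -0.26 and 0.18 and was not called, though with the length offset it was at -0.40 with IFNw and -0.40 with H11 in optimized cells and passed the test. CCNA2, cyclin A2, which acts in S phase and G2, rose with IFNw in wild-type cells (0.37 ± 0.12, or 0.32 and not called with the length offset) from 129.8 and 144 to 176 and 177 CPM. CDC20, the activator of the anaphase-promoting complex, lay between 91.4 and 191 CPM and was called in none of these comparisons (largest value 0.41 with H11 in optimized cells). Of these 3 cyclins cyclin A2 alone rose where CDK1 did, in 1 comparison.

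MKI67, a chromosome surface protein used as a marker of dividing cells, fell where CDK1 rose most. MKI67 was at 110.2 and 119.6 CPM in untreated wild-type cells, 50.1 and 57.1 with IFNw, 138 and 149 with H11 and 141 and 161 with IFNL3. Optimized cells had 93.4 and 137 CPM untreated, 45.8 and 47.7 with IFNw, 52.5 and 60.8 with H11 and 97.5 and 95.2 with IFNL3. All 6 libraries with IFNw, or with H11 in optimized cells, lay below the other 10. It fell with IFNw in wild-type cells (-1.10 ± 0.16, adjusted p = 5.7e-05 by edgeR), with IFNw in optimized cells (-1.29 ± 0.16) and with H11 in optimized cells (-1.02 ± 0.16). It rose with IFNL3 in wild-type cells (0.40 ± 0.15) and was at 0.32 ± 0.15 with H11 there, not called. The longest MKI67 transcript has 12678 bases, the longest of the 44 genes, and with the length offset the 3 falls were -0.64, -0.90 and -0.67, all still called, and the rise 0.11, not called.

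TOP2A, which untangles replicated chromosomes, and CENPF, a kinetochore protein, also fell with IFNw and, in optimized cells, with H11. TOP2A was at 390.2 and 429 CPM in untreated, 217 and 197 in IFNw, 411 and 385 in H11 and 397 and 389 in IFNL3 wild-type libraries. TOP2A in optimized cells was at 400.5 and 449 CPM untreated, 234 and 207 with IFNw, 253 and 225 with H11 and 311 and 318 with IFNL3, so the 6 libraries with IFNw, or with H11 in optimized cells, lay below the other 10. TOP2A fell with IFNw in wild-type cells (-0.99 ± 0.12, adjusted p = 6.9e-06 by edgeR) and with all 3 ligands in optimized cells (-0.94 ± 0.12, -0.83 ± 0.12 and -0.43 ± 0.12). With H11 and IFNL3 in wild-type cells it was at -0.04 and -0.06, not called. The fall with IFNL3 in optimized cells was not called without replicate 1 or 2 of those libraries (-0.40 and -0.45) or without replicate 2 of untreated optimized cells (-0.35).
CENPF was at 64.8 and 88.9 CPM in untreated wild-type cells, 46.9 and 38.4 with IFNw, 101 and 120.4 with H11 and 111 and 112 with IFNL3. It fell with IFNw (-0.85 ± 0.16) and rose with H11 (0.53 ± 0.15) and IFNL3 (0.53 ± 0.15), and all 3 were no longer called with the length offset (-0.42, 0.26 and 0.26). In optimized cells CENPF fell from 78.5 and 84.6 CPM to 39.6 and 46.0 with IFNw (-0.93 ± 0.16) and 43.7 and 40.1 with H11 (-0.96 ± 0.16), which were -0.56 and -0.63 with the offset and still called. The rise with IFNL3 in wild-type cells was not called without IFNL3 replicate 2 (0.52) or untreated replicate 1 (0.32).

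**Figure D2:**
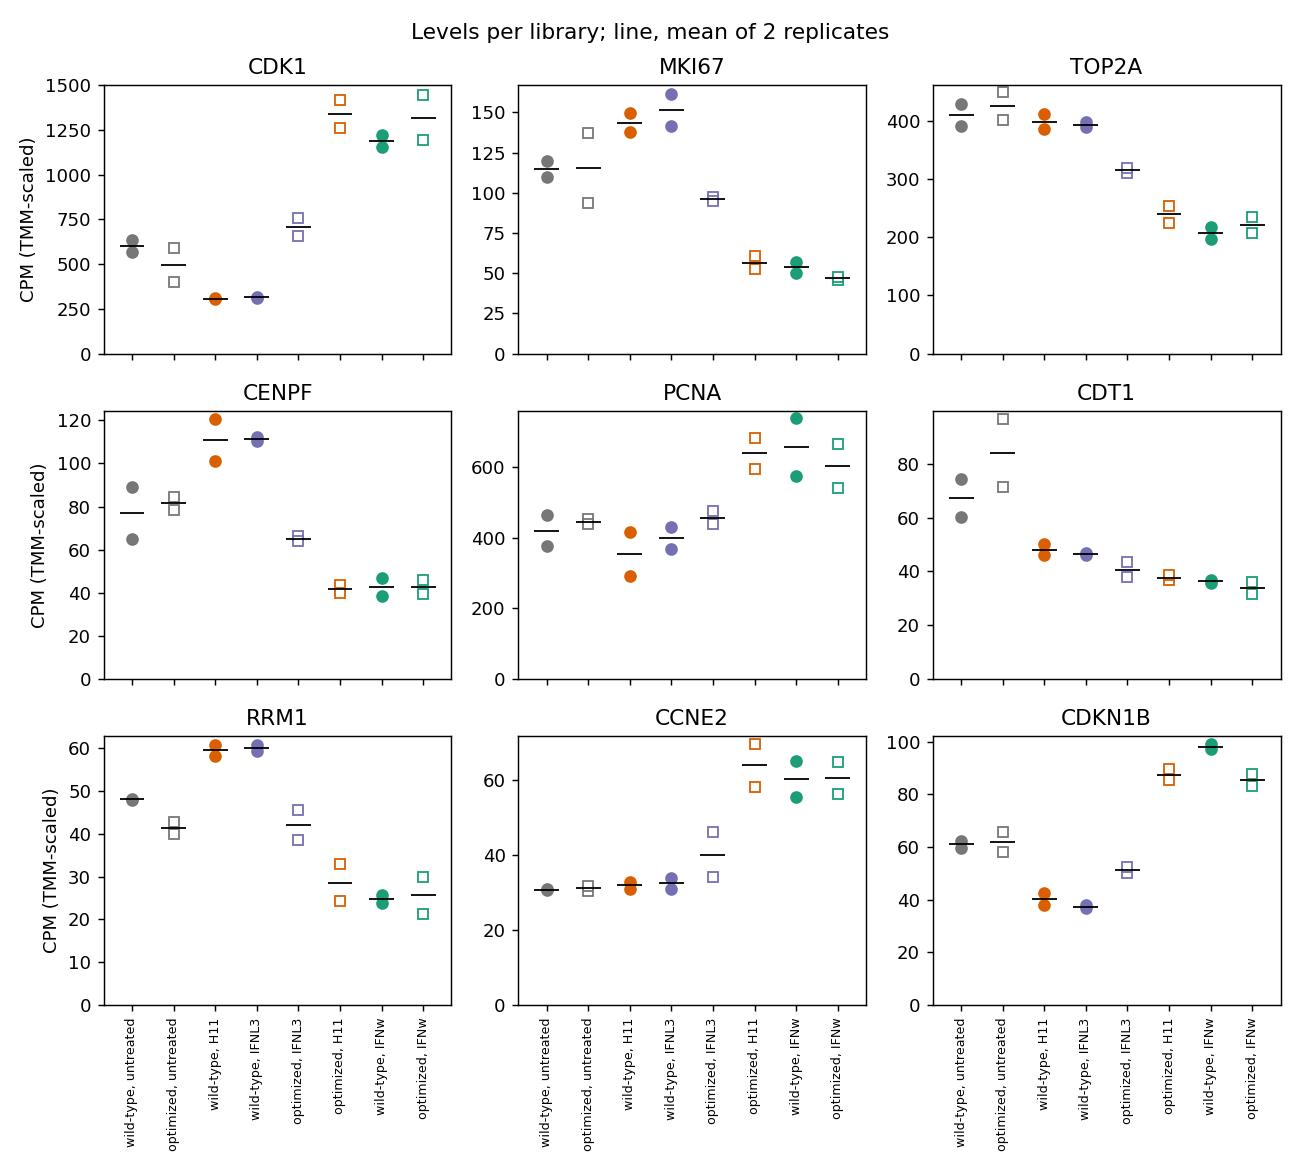
CPM (y axis, TMM-scaled, from 0) of 9 genes in the 8 groups (x axis); filled circles are wild-type and open squares optimized libraries, and lines are means of 2 replicates. CDK1, CCNE2 and CDKN1B are highest, and MKI67, TOP2A, CENPF and RRM1 lowest, in the 3 groups at the right, IFNw in either genotype and H11 in optimized cells.

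The mitotic kinases and their activators went several ways. PLK1, polo-like kinase 1, fell with IFNw in wild-type (-0.32 ± 0.12) and optimized cells (-0.59 ± 0.12) and with H11 in optimized cells (-0.48 ± 0.12). TPX2, the spindle activator of Aurora A, fell in the same 3 comparisons (-0.55 ± 0.15, -0.55 ± 0.15 and -0.60 ± 0.15, the last -0.42 and not called without H11 replicate 1). AURKA itself, a spindle pole kinase, rose with H11 (0.85 ± 0.24) and IFNL3 (0.87 ± 0.24) in wild-type cells, from 11.9 and 12.6 CPM to 21.2 and 23.0 and 20.2 and 24.6. Neither rise was called without untreated wild-type replicate 1 (0.81 and 0.83), nor without replicate 2 of the ligand (0.79 and 0.72). AURKB, the centromeric Aurora kinase, was called in 0 of the 6 ligand comparisons and lay between 21.4 and 31.1 CPM, though with the length offset it was at -0.78 with IFNw in wild-type and -0.52 with H11 in optimized cells and passed the test.

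KIF11, the kinesin that separates spindle poles, was low throughout, from 5.15 to 13.8 CPM. It fell with IFNw in wild-type cells (-0.81 ± 0.24) and with IFNw, H11 and IFNL3 in optimized cells (-0.68 ± 0.23, -0.99 ± 0.24 and -0.71 ± 0.23). Among these only the fall with H11 stayed called with the length offset (-0.85, against -0.62, -0.54 and -0.73). Leaving out IFNw replicate 1, IFNw replicate 2 or untreated replicate 2 in wild-type cells gave -0.65, -0.90 and -0.67, not called, and leaving out untreated replicate 2 in optimized cells gave -0.43 with IFNw and -0.46 with IFNL3, also not called. The fall with IFNw in optimized cells was -0.43 without IFNw replicate 1, and that with IFNL3 -0.67 and -0.74 without IFNL3 replicate 1 and 2, none of them called. CENPE, a kinetochore motor, rose with H11 and IFNL3 in wild-type cells (0.56 ± 0.17 and 0.47 ± 0.17), but not with the length offset (0.32 and 0.22). The H11 value was also not called without H11 replicate 1 or 2 or untreated replicate 1 (0.58, 0.54 and 0.45). The checkpoint kinase BUB1 rose in these 2 comparisons too (0.41 ± 0.15 and 0.42 ± 0.15), and KIF20A, a kinesin of cytokinesis, with IFNL3 (0.44 ± 0.15). NUSAP1, a spindle microtubule protein, fell with IFNw in both genotypes (-0.34 ± 0.12 and -0.34 ± 0.12). BUB1B, the checkpoint protein BubR1, and BIRC5, survivin, were called in 0 of the 6, with fold changes between -0.25 and 0.18 and between 0.07 and 0.33.

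Among the G1/S genes, CDT1 was the only one of the 43 tested genes that fell in all 6 ligand comparisons. CDT1 was at 60.3 and 74.5 CPM in untreated wild-type cells and at 35.6 and 36.9, 46.0 and 50.2 and 46.1 and 46.8 with IFNw, H11 and IFNL3. In optimized cells it went from 71.4 and 96.5 CPM to 36.0 and 31.8, 36.7 and 38.7 and 37.8 and 43.5. Every library with a ligand lay below every untreated one. The fold changes were -0.89 ± 0.16, -0.49 ± 0.15 and -0.54 ± 0.15 in wild-type cells and -1.30 ± 0.16, -1.15 ± 0.16 and -1.04 ± 0.16 in optimized cells, with adjusted p between 9.7e-06 and 0.019 by edgeR, and with the length offset they lay between -1.32 and -0.46, all called. The falls with H11 and IFNL3 in wild-type cells were not called without untreated replicate 2 (-0.33 and -0.38), nor without either of the ligand's libraries (-0.42 and -0.55 for H11, -0.52 and -0.55 for IFNL3). With library totals alone they were -0.22 and -0.26, not called.

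The other licensing genes varied in direction. MCM6, a helicase subunit, fell with IFNw in wild-type cells from 272 and 278 to 187 and 176 CPM (-0.60 ± 0.12), with IFNw in optimized cells (-0.65 ± 0.12) and with H11 in optimized cells (-0.57 ± 0.12). MCM4 rose with IFNw in optimized cells (0.42 ± 0.14), to 269 and 251 CPM from 230 and 160 untreated. The 160 CPM came from replicate 2 of untreated optimized cells, which stood apart, and no value without it is given. MCM2 fell with IFNL3 in wild-type cells (-0.37 ± 0.14). That fall was not called without replicate 1 or 2 of that ligand (-0.46 and -0.28) or untreated replicate 1 (-0.21). The remaining subunits MCM3, MCM5 and MCM7 were called in 0 of the 6, so the 6 subunits of 1 complex did not share their calls. MCM10, which helps to start the helicase, rose with H11 (0.82 ± 0.16) and IFNL3 (0.75 ± 0.16) in wild-type cells, from 39.3 and 41.4 CPM to 68.3 and 74.3 and 64.6 and 71.6. It also rose with IFNL3 in optimized cells (0.61 ± 0.16), but not without replicate 2 of untreated optimized cells (0.40) or either IFNL3 library (0.71 and 0.52).

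The calls of CDC6 and GINS2 rested on replicate 2 of untreated optimized cells. GINS2, a subunit of the active helicase, was at 178 and 63.4 CPM in untreated optimized cells, against 162 and 183 in untreated wild-type cells and 253 and 218 with IFNw in optimized cells. It rose with IFNw and H11 in optimized cells (0.95 ± 0.29 and 0.81 ± 0.28), but was at 0.40 and 0.26 without that library, not called. Neither rise was called without replicate 1 of the ligand (0.87 with IFNw and 0.84 with H11), nor that with H11 without replicate 2 (0.85), and with the length offset the H11 value was 0.73, not called. CDC6, an origin loading factor, was at 53.5 and 30.8 CPM in the same pair and rose with H11 and IFNL3 in optimized cells (0.57 ± 0.19 and 0.71 ± 0.18), or 0.24 and 0.38 without it, not called. The CDC6 calls were also lost without H11 replicate 2 (0.50) and without IFNL3 replicate 1 or 2 (0.74 and 0.69).

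The genes of nucleotide supply split between the subunits of ribonucleotide reductase. RRM1, its large subunit, was at 48.2 and 47.9 CPM in untreated wild-type cells, 25.8 and 23.9 with IFNw, 60.9 and 58.2 with H11 and 59.4 and 60.8 with IFNL3. Optimized cells had 42.7 and 39.9 CPM untreated, 29.9 and 21.3 with IFNw, 33.0 and 24.2 with H11 and 45.5 and 38.5 with IFNL3. RRM1 fell with IFNw in wild-type cells (-0.95 ± 0.17, adjusted p = 0.00044 by edgeR). It also fell with IFNw in optimized cells (-0.69 ± 0.17, or -0.44 and not called without IFNw replicate 2). With H11 in optimized cells RRM1 fell too (-0.53 ± 0.17), and no value of that fall without 1 library is given. RRM2, the small subunit, was at -0.04, 0.03 and 0.11 in those comparisons, not called, and rose with H11 and IFNL3 in wild-type cells (0.52 ± 0.12 and 0.51 ± 0.12). TYMS, thymidylate synthase, rose in the same 2 comparisons (0.43 ± 0.11 and 0.36 ± 0.11).

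The genes of the replication fork differed in how far the length offset moved them. PCNA, with a longest transcript of 1359 bases, was at 463 and 376 CPM in untreated wild-type cells and 736 and 573 with IFNw, and at 452 and 437 in untreated and 681 and 594 in H11-treated optimized cells. It rose in both comparisons (0.64 ± 0.17 and 0.52 ± 0.17), but was at 0.21 and 0.07 with the length offset and was not called. Leaving out IFNw replicate 1 or untreated replicate 2 in wild-type cells gave 0.50 and 0.50, and leaving out H11 replicate 1 or untreated replicate 2 in optimized cells 0.45 and 0.50, not called. POLA1, the catalytic subunit of polymerase alpha, with 5486 bases, fell with IFNw in wild-type (-0.47 ± 0.14) and optimized cells (-0.42 ± 0.14) and with H11 in optimized cells (-0.46 ± 0.14). These falls became -0.23, -0.24 and -0.28 with the offset and were not called, whereas its rises with H11 and IFNL3 in wild-type cells (0.50 ± 0.14 and 0.60 ± 0.14) stayed called at 0.39 and 0.49. RFC4, a subunit of the clamp loader, fell with IFNw and H11 in optimized cells (-0.64 ± 0.15 and -0.58 ± 0.15), and with the offset these were -1.09 and -1.0. FEN1, which trims Okazaki fragments, rose with all 3 ligands in wild-type cells (0.73 ± 0.17, 0.84 ± 0.17 and 0.60 ± 0.17, the last 0.40 without IFNL3 replicate 1 and 0.57 without untreated replicate 1, not called).

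The E-type cyclins, which open S phase with CDK2, rose where they were called. CCNE2 was at 30.9 and 30.5 CPM in untreated wild-type cells, 64.9 and 55.4 with IFNw, 32.7 and 30.9 with H11 and 33.8 and 30.9 with IFNL3. Optimized cells had it at 30.3 and 31.7 CPM untreated, 64.8 and 56.2 with IFNw, 69.6 and 58.0 with H11 and 46.0 and 34.0 with IFNL3. The 6 libraries with IFNw, or with H11 in optimized cells, lay above the other 10. It rose with IFNw in wild-type cells (0.97 ± 0.16, adjusted p = 0.00019 by edgeR), and with IFNw (0.97 ± 0.16) and H11 (1.04 ± 0.16) in optimized cells, and with the length offset these were 1.0, 0.96 and 1.04. CCNE1 rose in 5 of the 6 comparisons: with IFNw and H11 in wild-type cells (0.64 ± 0.18 and 0.79 ± 0.18) and with IFNw, H11 and IFNL3 in optimized cells (0.78 ± 0.19, 0.86 ± 0.19 and 0.78 ± 0.19). With IFNL3 in wild-type cells it was at 0.30 ± 0.18, not called (with the length offset 0.48, which passed the test). The rise with IFNw in wild-type cells was not called with the length offset (0.41) or without IFNw replicate 2 (0.53) or untreated replicate 2 (0.54), and that with IFNL3 in optimized cells not without IFNL3 replicate 1 (0.72) or untreated replicate 2 (0.60).

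E2F1, the transcription factor of the G1/S genes, and UHRF1, which couples DNA methylation to replication, rose with H11 and IFNL3 in wild-type cells. E2F1 went from 89.97 and 94.9 CPM to 136 and 128 and 122 and 142 (0.51 ± 0.12 and 0.51 ± 0.12). UHRF1 went from 71.8 and 71.7 CPM to 96.3 and 126 and 106 and 117 (0.63 ± 0.15, or 0.43 and not called without H11 replicate 2, and 0.63 ± 0.15). Neither gene was called in the other 4 ligand comparisons, where E2F1 lay between -0.04 and 0.13 and UHRF1 between -0.29 and 0.08.

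Of the G1 regulators, the CDK inhibitors CDKN1B (p27) and CDKN1A (p21) fell with H11 and IFNL3 in wild-type cells. CDKN1B was at 59.7 and 62.2 CPM in untreated wild-type cells, 97.3 and 99.1 with IFNw, 37.8 and 42.6 with H11 and 37.8 and 36.8 with IFNL3. Optimized cells had 58.1 and 65.8 CPM untreated, 83.3 and 87.9 with IFNw, 85.4 and 89.6 with H11 and 50.01 and 52.3 with IFNL3. It rose with IFNw in wild-type cells (0.69 ± 0.12, adjusted p = 0.00034 by edgeR) and with IFNw and H11 in optimized cells (0.47 ± 0.12 and 0.50 ± 0.12), and fell with H11 and IFNL3 in wild-type cells (-0.60 ± 0.12 and -0.71 ± 0.12). CDKN1A was at 13.7 and 11.4 CPM in untreated wild-type cells and 5.91 and 6.62 with H11 and 5.99 and 4.49 with IFNL3 (-0.99 ± 0.20 and -1.25 ± 0.21). In the other 12 libraries CDKN1A lay between 11.4 and 16.8 CPM, and it was not called with IFNw in wild-type cells (0.35 ± 0.20) or with any ligand in optimized cells (-0.04, 0.06 and 0.02). Both inhibitors were thus lowest in wild-type cells given H11 or IFNL3, where CDK1 was also lowest. CCND1, cyclin D1, had 423 reads over all libraries and lay between 1.53 and 5.22 CPM; it was called with IFNw in optimized cells (1.09 ± 0.36), but not without any 1 of the 4 libraries compared (1.0 to 1.22). MYC had 3 reads in all 16 libraries together and was not tested; how well its target counts MYC transcripts was not tested.

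**Figure D3:**
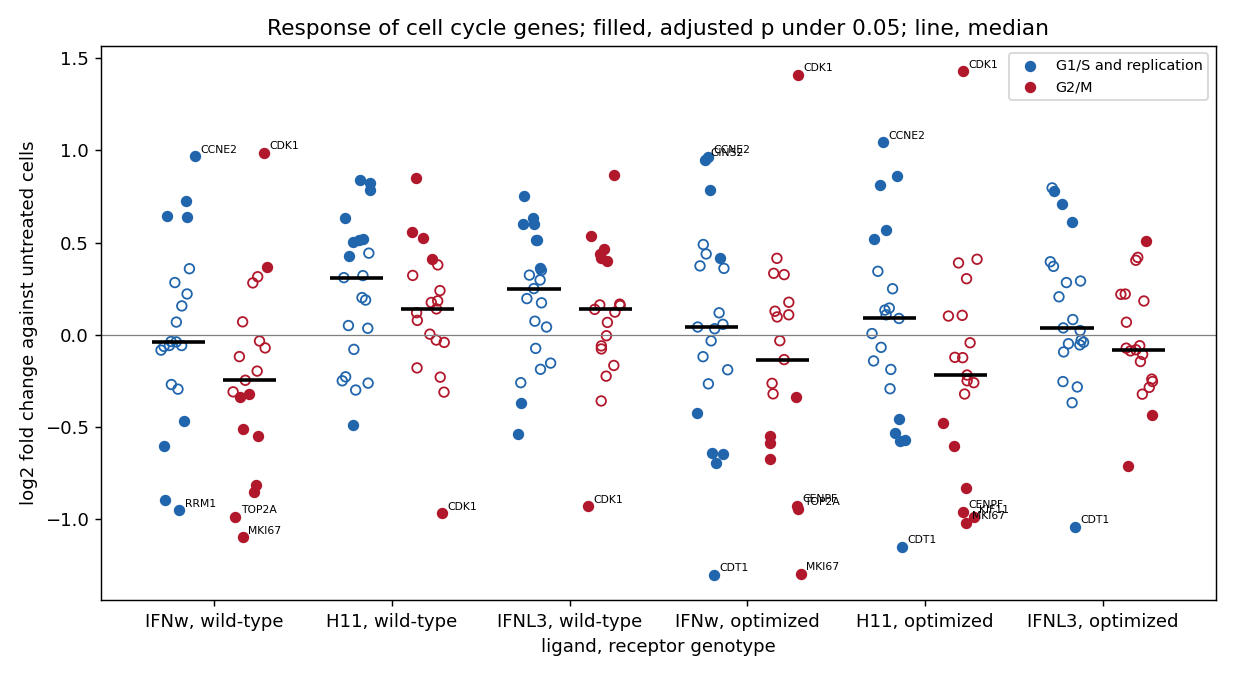
Log2 fold change against untreated cells (y axis) of the G1/S (blue) and G2/M (red) genes for each ligand and genotype (x axis); filled points have an adjusted p under 0.05 and lines are medians. CDK1 stands above the other G2/M genes with IFNw and, in optimized cells, with H11, and below them with H11 and IFNL3 in wild-type cells.

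Taken as classes, the G2/M genes lay lower than the G1/S genes after each ligand. With IFNw in wild-type cells 4 G1/S genes rose and 4 fell of 21 (median -0.04), and 2 G2/M genes rose and 8 fell of 19 (median -0.25), where the median of all genes was -0.05. With IFNw in optimized cells the counts were 4 up and 5 down (median 0.04) for G1/S and 1 up and 7 down (median -0.13) for G2/M genes. With H11 in optimized cells they were 5 up and 5 down (0.09) and 1 up and 6 down (-0.22), and with IFNL3 in optimized cells 3 up and 1 down (0.04) and 1 up and 2 down (-0.08). In wild-type cells both class medians were positive with H11 and with IFNL3. The counts for G1/S against G2/M genes were 8 up and 1 down (0.31) against 4 up and 1 down (0.14) with H11. With IFNL3 they were 7 up and 2 down (0.25) against 6 up and 1 down (0.14). The medians of all genes lay between -0.05 and -0.01 in these comparisons. Of all tested genes, 16.6% were called up and 14.8% down after IFNw in wild-type cells. The shares there were 18.2% and 20.6% after H11, and 18.7% and 21.1% after IFNL3. In optimized cells they were 17.5% and 15.9% (IFNw), 17.2% and 15.2% (H11) and 7.26% and 6.05% (IFNL3). Whether the class counts depart from these shares was not tested, and nothing particular to a class is read from the counts.

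The balance of the classes was also taken per library, as the mean log2(CPM + 1) of the 21 G1/S genes minus that of the 19 G2/M genes. Since each target counts on its own scale, only differences of this balance between groups can be read, not its sign. It was -0.14 ± 0.07 (SD, n = 2) in untreated wild-type and -0.15 ± 0.04 in untreated optimized cells. With IFNw it was 0.09 ± 0.06 and 0.05 ± 0.04 in wild-type and optimized cells, with H11 -0.03 ± 0.03 and 0.07 ± 0.03, and with IFNL3 -0.06 ± 0.03 and 0.00 ± 0.01. As counted, all 12 libraries with a ligand lay above all 4 untreated ones. With 2 libraries a group, an exact two-sided permutation test cannot go below p = 0.33, so none was run.

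The differences from untreated cells were 0.24, 0.12 and 0.08 with IFNw, H11 and IFNL3 in wild-type cells and 0.20, 0.23 and 0.16 in optimized cells. They came from different sides: with IFNw in wild-type cells the G2/M mean moved by -0.23 and the G1/S mean by 0.01, and with H11 in wild-type cells the G2/M mean moved by 0.11 and the G1/S mean by 0.23. CDK1 moved against its class, and without it the differences were 0.31, 0.06 and 0.03 in wild-type and 0.29, 0.32 and 0.19 in optimized cells. The separation was then not complete, since replicate 2 of wild-type cells with H11 (0.025) and with IFNL3 (-0.0016) lay below replicate 1 of untreated wild-type cells (0.038). The length offset gave 0.21, 0.15 and 0.11 in wild-type and 0.17, 0.21 and 0.15 in optimized cells. With the median of each class in place of the mean the optimized libraries with H11 (-0.60 and -0.45) and with IFNL3 (-0.54 and -0.43) lay within the range of the untreated ones (-0.70 to -0.40).

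**Figure D4:**
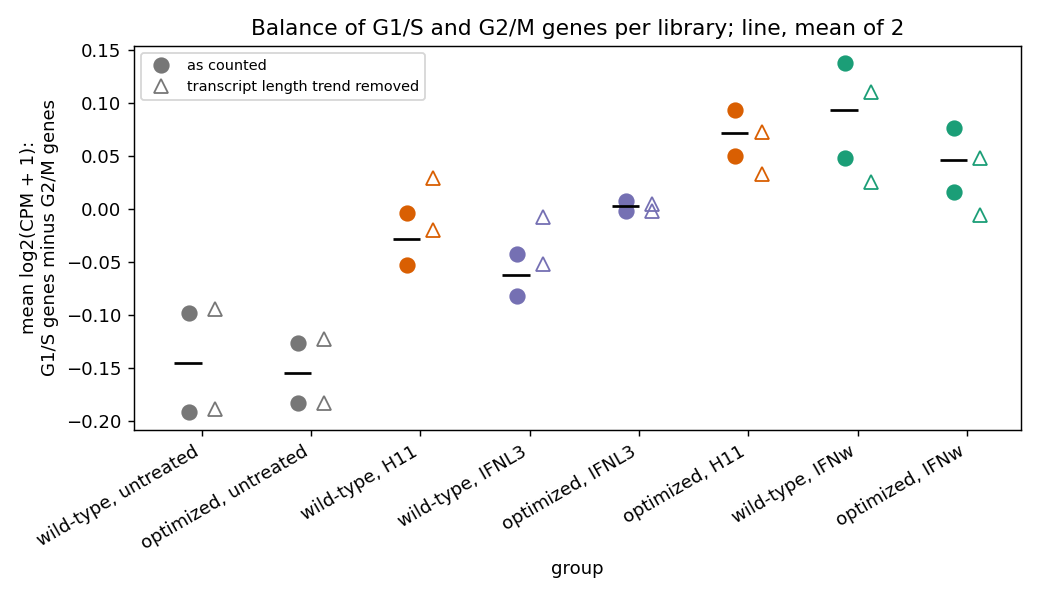
Mean log2(CPM + 1) of G1/S genes minus that of G2/M genes (y axis) per library in the 8 groups (x axis); circles are values as counted with a line at the mean of 2, triangles the values after the transcript length trend was removed. The 4 untreated libraries, between -0.19 and -0.10 as counted, lie below all 12 libraries with a ligand.

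Between the genotypes, edgeR called 0 of the 43 genes in untreated cells (0% of all genes called) and 0 with IFNw (0%), and DESeq2 called 0 of the 43 in each. At an unadjusted p under 0.05 there were 1 and 0 of the 43, and 705 and 439 of all genes. In untreated cells the fold change of optimized over wild-type cells was -0.27 for CDK1 (95% interval -0.57 to 0.03), 0.00 for MKI67 (-0.31 to 0.30) and 0.05 for TOP2A (-0.18 to 0.28). With IFNw these were 0.15 (-0.15 to 0.45), -0.20 (-0.52 to 0.12) and 0.09 (-0.14 to 0.32). The intervals use a normal approximation and can be narrower than the quasi-likelihood test implies. A missed threshold does not show that the genotypes were alike. Without replicate 1 of untreated optimized cells, which leaves the library that stood apart, 7 of the 43 were called in untreated cells.

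With H11 the genotypes differed in 25 of the 43 genes, 5 higher and 20 lower in optimized cells (51.7% of all genes called, 25.6% higher and 26.1% lower), or 4 higher and 35 lower with library totals alone (11.8% and 53.5% of all genes). CDK1 was 2.12 ± 0.16 (adjusted p = 9.0e-09 by edgeR), CDKN1A 1.23 ± 0.20, CDKN1B 1.12 ± 0.12, CCNE2 1.0 ± 0.16 and PCNA 0.85 ± 0.17, the last 0.09 and not called with the length offset. The 6 largest of the lower ones were CENPF (-1.40 ± 0.16), MKI67 (-1.34 ± 0.16), AURKA (-1.14 ± 0.25), RRM1 (-1.06 ± 0.17), MCM10 (-0.98 ± 0.16) and KIF11 (-0.93 ± 0.23), which were -0.75, -0.65, -1.44, -1.09, -0.78 and -0.69 with the offset and all still called. By class, 12 of 19 G2/M genes were lower and 1 higher (median -0.46). Of the 21 G1/S genes, 8 were lower and 2 higher (median -0.23), where the median of all genes was -0.05. With the length offset the classes lay closer, with 13 G2/M genes lower and 1 higher (median -0.42) and 11 G1/S genes lower and 1 higher (median -0.36). Of all 12704 genes, 2763 were lower and 2732 higher with the offset. The balance of G1/S minus G2/M genes differed by 0.10 as counted, 0.05 with the length trend removed and -0.31 by class medians. The optimized and wild-type H11 libraries were those with opposite length trends (rho -0.43 and -0.44 against 0.44 and 0.41).

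With IFNL3 fewer of the genes differed, 3 of the 43 higher and 14 lower in optimized cells (33.2% of all genes called, 18.1% higher and 15.1% lower), or 2 and 25 with library totals alone (9.49% and 34.7% of all genes). CDKN1A was at 1.44 ± 0.21, CDK1 at 1.17 ± 0.15 and CDKN1B at 0.46 ± 0.12. CENPF (-0.77 ± 0.16), MKI67 (-0.65 ± 0.16) and KIF11 (-0.64 ± 0.22) were the lowest, and all 3 were no longer called with the length offset (-0.43, -0.28 and -0.54). E2F1 (-0.62 ± 0.12, -0.72 with the offset) and POLA1 (-0.57 ± 0.14, -0.42) stayed called. KIF11 was not called without any 1 of the 4 libraries compared (-0.67 to -0.61), nor CDKN1B without replicate 2 of either genotype (0.42 and 0.44). In place of 17, 7 genes were called without either wild-type library, 10 without optimized IFNL3 replicate 1 and 9 without replicate 2.

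The difference between the genotypes' responses to a ligand was tested as an interaction. For IFNw edgeR called 0 of the 43 genes (0% of all), with 0 of the 43 and 633 of all genes at an unadjusted p under 0.05, and DESeq2 called 0; it was 4 without replicate 1 of untreated optimized cells. The difference for CDK1 was 0.42 (95% interval -0.00082 to 0.85, by the same normal approximation, which can be too narrow). For H11, 6 of the 43 were higher and 17 lower (36.9% of all genes called, 19.5% higher and 17.4% lower), and 14 were called in all without H11 replicate 2 of optimized cells and 15 without untreated replicate 1 of wild-type cells. With library totals alone 2 were higher and 30 lower (8.97% and 42.1% of all genes). CDK1 differed by 2.40 ± 0.22 and CENPF by -1.49 ± 0.22. For IFNL3, 2 were higher and 5 lower (18.4% of all genes called, 11.1% higher and 7.31% lower), with CDK1 at 1.44 ± 0.22 and CDKN1A at 1.27 ± 0.29, the 2 higher ones, both also called with the length offset (1.15 and 1.08) and without each of the 8 libraries in turn. With library totals alone 2 were higher and 19 lower (5.72% and 20.6% of all genes). The 5 lower ones, CENPF, POLA1, MKI67, E2F1 and MCM7, each lost the call without at least 1 library.

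**Figure D5:**
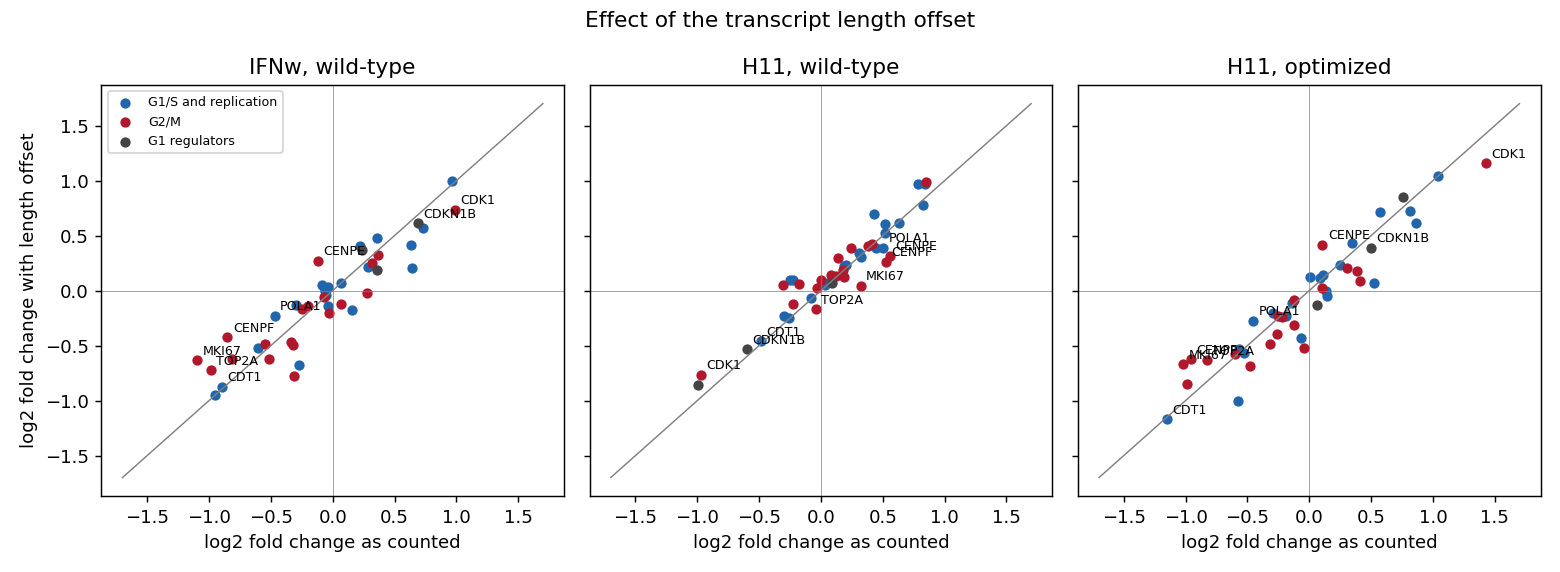
Log2 fold changes against untreated cells as counted (x axis) and with the transcript length offset (y axis) for the 43 genes in 3 comparisons (panels); the grey diagonal marks equal values. Points far below zero that belong to long transcripts, such as MKI67 and CENPF, move towards zero in the panels for IFNw in wild-type and H11 in optimized cells.

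Other genes of the same pathways, taken as whole lists, also went both ways. Their counts below stand against the shares of all tested genes called, 31.4%, 38.8% and 39.7% with IFNw, H11 and IFNL3 in wild-type cells and 33.4%, 32.4% and 13.3% in optimized cells, and nothing particular to a list is read from them. Of 56 tested genes of origins, forks and nucleotide supply, IFNw in wild-type cells gave 10 up and 9 down, 14 and 7 with H11 and 14 and 8 with IFNL3. In optimized cells 10 rose and 6 fell with IFNw, 11 and 5 with H11, and 6 and 1 with IFNL3. GMNN, geminin, the inhibitor of CDT1, rose with IFNw (1.18 ± 0.18, 0.71 with the length offset) in wild-type cells and with IFNw, H11 and IFNL3 in optimized cells (1.32 ± 0.19, 1.35 ± 0.19 and 0.69 ± 0.18). WDHD1, a replication fork adaptor, fell with IFNw in wild-type cells (-0.96 ± 0.21) and with all 3 ligands in optimized cells (-1.52 ± 0.22, -1.41 ± 0.21 and -0.85 ± 0.21). POLE, the leading-strand polymerase, rose with H11 and IFNL3 in wild-type cells (1.19 ± 0.23 and 1.29 ± 0.23).

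Of 65 tested genes of the spindle, kinetochore and cytokinesis, IFNw in wild-type cells gave 12 up and 14 down (median -0.13), 15 and 16 with H11 (0.05) and 17 and 16 with IFNL3 (0.06). Optimized cells gave 12 and 18 with IFNw (-0.17), 13 and 15 with H11 (-0.11) and 3 and 8 with IFNL3 (-0.14). CDKN3, a phosphatase that acts on CDKs, rose with IFNw in wild-type cells (1.32 ± 0.10) and with IFNw and H11 in optimized cells (1.51 ± 0.10 and 1.44 ± 0.10), though less with the length offset (0.78, 0.93 and 0.89). CENPK, a kinetochore subunit, rose in these 3 comparisons (1.23 ± 0.17, 1.28 ± 0.17 and 1.37 ± 0.17) and fell with H11 and IFNL3 in wild-type cells (-1.10 ± 0.18 and -1.05 ± 0.18). HMMR, a spindle protein, fell with H11 (-1.42 ± 0.16) and IFNL3 (-1.29 ± 0.15) in wild-type cells. INCENP, of the chromosomal passenger complex, fell with IFNw in wild-type cells (-0.96 ± 0.12) and in optimized cells with H11 (-0.90 ± 0.12).

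In the list of RB, E2F and G1 kinase genes (29 tested) IFNw in wild-type cells gave 5 up and 6 down, 8 and 5 with H11 and 8 and 4 with IFNL3, and in optimized cells 6 and 7, 6 and 8, and 2 and 3. CCND2, cyclin D2, fell in all 6 comparisons (-1.48, -1.36 and -1.31 with IFNw, H11 and IFNL3 in wild-type cells, and -2.08, -1.41 and -1.0 in optimized cells). CDK6, a kinase of D cyclins, fell with IFNw in both genotypes (-1.03 ± 0.20 and -1.07 ± 0.21) and with H11 in optimized cells (-1.04 ± 0.21). Its relative CDK4 rose with IFNw in wild-type cells (0.87 ± 0.16) and fell with H11 and IFNL3 there (-0.58 ± 0.16, or -0.41 and not called with the length offset, and -0.61 ± 0.16). LIN9, a DREAM and MuvB core subunit, rose with IFNw in wild-type cells (0.60 ± 0.17) and with all 3 ligands in optimized cells (1.13 ± 0.18, 1.18 ± 0.18 and 0.56 ± 0.18).

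Among 26 tested CDK inhibitors, p53 targets and antiproliferative genes, IFNw in wild-type cells gave 6 up and 3 down, 3 and 9 with H11 and 3 and 10 with IFNL3, and in optimized cells 5 and 4, 5 and 4, and 1 and 6. SERTAD1, a regulator of CDK4, rose in all 6 (2.32, 1.44 and 1.16 with IFNw, H11 and IFNL3 in wild-type cells, 2.23, 2.34 and 1.72 in optimized cells). CDKN1C, p57, fell with H11 and IFNL3 in wild-type cells (-2.31 ± 0.23 and -2.39 ± 0.23), as did the p53 target BBC3, PUMA (-2.07 ± 0.25 and -2.61 ± 0.26). MDM2, the p53 ligase, rose there (0.76 ± 0.13 and 0.76 ± 0.13) and fell in wild-type cells with IFNw (-0.47 ± 0.13, -0.01 and not called with the length offset). Of 27 tested MYC partners and nucleolar growth genes, IFNw in wild-type cells gave 10 up and 4 down, 11 and 8 with H11 and 11 and 6 with IFNL3, and in optimized cells 11 and 4, 10 and 6, and 7 and 4. GNL3, nucleostemin, rose with IFNw in wild-type (1.28 ± 0.12) and optimized cells (1.35 ± 0.12).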

How the data were processed

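Amplicon RNA-seq was deposited for 16 libraries of HEK293 cells, 2 in each of 8 groups. The authors deposited raw read counts per target (1 file per library, per the file headers), for 20802 gene targets and 10 spike-in targets, which had at most 1 read and were left out here. The build is hg19 per the submitters' processing notes; of the aligner and counter, not given in the sources used here, nothing can be said. The count of a target reflects its amplicon, and the labels name no molecular identifiers, so counts are of reads. More than 1 library kit is named in the labels' protocols, without saying which library had which. Of 28 symbols that a spreadsheet had turned into dates, 27 were given their names back.

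Counts were tested in R 4.3.3 with edgeR 4.0.16 (filterByExpr, TMM factors, quasi-likelihood F-test), 1 fit of all 16 libraries, 12704 genes and a common dispersion of 0.0176, with Benjamini-Hochberg adjustment over those genes and a threshold of 0.05. Depth was 5331203 to 9822088 reads. The script was also tested on simulated data. DESeq2 1.42.0, library totals, other filters, a transcript length offset (a spline of 5 degrees of freedom over 11700 tested genes), replicates left out and a replicate block were the alternatives. Transcript length is that of the longest protein-coding GENCODE v29 transcript. It was first the median over transcripts and was changed after values had been seen, since short fragments had pulled it down. The median version is kept as an alternative added after seeing the data, as are library totals alone and the class balance without CDK1.

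The members and lists were chosen with earlier results of these data known. Named are up to 6 called members per direction and comparison with the largest change, the cyclins, CDK inhibitors and MYC by value, and up to 3 called genes per other list and direction at 5 CPM or more, and further members by role. Promoters (RefSeq, GRCh38.p14) were matched by symbol for 18 of 21 G1/S, 16 of 19 G2/M and 2 of 4 G1 genes, and motifs were searched as letters on both strands.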

Additional observations from a re-analysis of the deposited data

Results flagged for a closer look

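The responses of the genotypes to H11 differed, by a test of the difference itself (an interaction term in edgeR with adjustment over all genes), for 23 of the 43 tested genes. Of all genes 36.9% were called in that test (19.5% higher and 17.4% lower). The values are the log2 response of optimized cells minus that of wild-type cells. Of the G1/S genes, GINS2 (1.11), CCNE2 (0.99) and PCNA (0.77) responded higher in optimized cells. POLA1 (-0.96), UHRF1 (-0.93), RRM1 (-0.84), MCM10 (-0.81), FEN1 (-0.69), CDT1 (-0.66), MCM6 (-0.49) and TYMS (-0.49) responded lower. Of the G2/M genes CDK1 responded higher by 2.40, and CENPF (-1.49), MKI67 (-1.34), KIF11 (-1.17), AURKA (-0.97), TOP2A (-0.79), PLK1 (-0.72), TPX2 (-0.72), BUB1 (-0.66) and KIF20A (-0.60) responded lower. The inhibitors CDKN1B (1.10) and CDKN1A (1.06) responded higher. CDT1 fell in both genotypes, so its value is a larger fall in optimized cells, whereas CDK1 and CDKN1B rose in optimized and fell in wild-type cells. Values without 1 library are given only for the 6 largest differences in each direction. Among those, GINS2, PCNA and AURKA lost the call without at least 1 library. The PCNA difference was -0.027 and not called with the length offset.

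The responses to IFNL3 differed in the same sense for 7 of the 43 genes, where 18.4% of all genes were called (11.1% higher and 7.31% lower). CDK1 (1.44) and CDKN1A (1.27) responded higher in optimized cells, and CENPF (-0.86), POLA1 (-0.69), MKI67 (-0.65), E2F1 (-0.54) and MCM7 (-0.54) lower. Each of the lower genes lost the call without at least 1 library.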

How the results depend on the processing

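With library totals alone the number of the 43 genes called was 27 with H11 in wild-type cells, 39 for optimized against wild-type cells with H11, 27 for the same with IFNL3 and 21 for the IFNL3 response difference. Of all genes 31.8%, 11.8%, 9.49% and 5.72% were higher and 12.5%, 53.5%, 34.7% and 20.6% lower, in that order. For the other settings below, and for fits without 1 library, shares of all genes are not given. Those counts are therefore not read as particular to these genes. With the compared groups alone it was 7 with IFNw and 7 with H11 in optimized cells, 1 with IFNL3 there and 4 for the IFNL3 response difference. The replicate block gave 12 with IFNL3 in optimized cells, 12 there with the length offset and the replicate block together, and 12 for the IFNL3 response difference. The labels do not say that a replicate number marks anything shared. Deviations of same-numbered libraries correlated at 0.083 to 0.206 over 28 pairs of groups, above 0.1 in 27 and below it in 1, and the libraries were not treated as pairs. With the offset by the median transcript length, an alternative added after seeing the data, 10 genes differed between the genotypes with IFNL3. Length had first been the median and was changed to the longest transcript after values were seen. The PCNA difference between the H11 responses (0.77) was -0.027 with the length offset and -0.024 with the length offset and the replicate block, of opposite sign and not called. Among 103 named values of a gene in a comparison, 20 were no longer called with the length offset, besides the PCNA difference that changed sign. By the median length 25 were no longer called, 20 with library totals, 21 with the compared groups alone, 7 with DESeq2 and 37 without at least 1 library. The replicate block ended 0 of these calls, and 0 changed sign without 1 library. The cause of these changes was not tested.

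Without 1 library in turn, where a lone library was taken to vary like the other groups, the number called in wild-type cells was 11 to 15 with IFNw, 11 to 13 with H11 and 9 to 12 with IFNL3. In optimized cells it was 14 to 24, 12 to 24 and 1 to 13. Between genotypes it was 0 to 7 untreated, 0 to 0 with IFNw, 19 to 23 with H11 and 7 to 10 with IFNL3, and for the response differences 0 to 4, 14 to 23 and 3 to 17. Without replicate 2 of untreated optimized cells, which stood apart, 15, 16 and 1 were called with IFNw, H11 and IFNL3 in optimized cells in place of 19, 18 and 7, and without replicate 1 they were 24, 24 and 13. In wild-type cells 11 were called with IFNw without IFNw replicate 1 (19 with all), and 10, 9 and 11 with IFNL3 without IFNL3 replicate 1, IFNL3 replicate 2 or untreated replicate 1 (18 with all).

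The balance of G1/S minus G2/M genes, in the order untreated, IFNw, H11 and IFNL3, ranged without 1 library over -0.19 to -0.10, 0.05 to 0.14, -0.05 to 0.00 and -0.08 to -0.04 in wild-type cells. In optimized cells it ranged over -0.18 to -0.13, 0.02 to 0.08, 0.05 to 0.09 and 0.00 to 0.01. By class medians it was -0.44, -0.30, -0.22 and -0.19 in wild-type and -0.59, -0.36, -0.53 and -0.49 in optimized cells. With genes of 20 CPM or more it was -0.38, -0.19, -0.24 and -0.26, and -0.37, -0.21, -0.22 and -0.25. Without CDK1, added after seeing the data, it was -0.0066, 0.30, 0.050 and 0.019, and -0.030, 0.26, 0.29 and 0.16. With the length trend removed it was 0.0049 with H11 and -0.029 with IFNL3 in wild-type cells, 0.0022 and -0.029 by the median length, and with a pseudocount of 0.25 it was 0.011 with IFNL3 in optimized cells. Depth limits MYC (3 reads over all libraries), which was not tested, and CCND1 (423 reads).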
